A study of Mus musculus with 2 samples.

Results

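The genes described here encode the myosin-binding proteins, the myomesins and titin, the proteins that hold the thick filament of the sarcomere in register. They were chosen by name, as the 9 listed symbols Mybpc1, Mybpc2, Mybpc3, Mybph, Mybphl, Myom1, Myom2, Myom3 and Ttn, and all 9 were found among the 55401 genes of the count tables. Hearts came from C57BL/6 mice that had undergone transverse aortic constriction (TAC), an operation that narrows the aorta so that the left ventricle pumps against raised pressure. One library carries the treatment label TAC alone, and the other the label TAC with dioscin, a plant steroidal saponin, given for 4 weeks (called the dioscin library). Both groups share the surgery and the strain. The protocol text names dioscin for either sample, so only the treatment label marks the TAC library as untreated. The labels give no age, dose or number of hearts per library. With 1 library per group, differences between mice could not be measured, no test between the groups is possible, and every interval below covers counting error only.

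Myosin-binding protein C lies in stripes along the thick filament, where it binds myosin and actin and tunes how readily myosin heads engage. Myomesins cross-link neighbouring thick filaments at the M-band, the centre line of the sarcomere. Titin, a giant protein, spans from the Z-disc to the M-band and acts as the molecular spring of the muscle. In the mouse heart, Mybpc3, Myom1, Myom2 and Ttn are the working muscle forms, whereas Mybpc1, Mybpc2 and Mybph are known mainly from skeletal muscle and Mybphl from atrial muscle and the conduction system.

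The promoters of Mybphl, Mybpc3 and Ttn are shown first, because Mybphl and Mybpc3 had the largest differences in opposite directions and Ttn had the most counts. Each sequence is the 250 bases before the gene start, 5′ to 3′ on the strand of the gene, from RefSeq on GRCm38.p6, the build that mm10 names, and 8 of the 9 members had an entry (Myom2 had none). The windows are chr3:108364661-108364910 on the plus strand for Mybphl, chr2:91117894-91118143 on the plus strand for Mybpc3 and chr2:76982548-76982797 on the minus strand for Ttn. Capitals mark matches on either strand to a motif of GATA factors (letters AGATAA), the M-CAT element of TEAD factors (GGAATG), a motif of T-box factors (AGGTGT), a motif of NKX2 factors (AAGTG), the TATA box in its common form (TATAAA), or the consensus named MEF2 or CArG.
Mybphl: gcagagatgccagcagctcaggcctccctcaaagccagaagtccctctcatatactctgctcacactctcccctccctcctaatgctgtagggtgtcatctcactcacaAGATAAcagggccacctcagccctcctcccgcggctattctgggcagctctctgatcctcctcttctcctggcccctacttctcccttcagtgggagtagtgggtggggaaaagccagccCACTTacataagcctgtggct
Mybpc3: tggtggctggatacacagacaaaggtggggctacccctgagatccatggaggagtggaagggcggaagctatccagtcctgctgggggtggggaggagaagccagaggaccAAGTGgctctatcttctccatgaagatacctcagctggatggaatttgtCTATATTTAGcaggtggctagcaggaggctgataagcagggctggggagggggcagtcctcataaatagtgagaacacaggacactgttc
Ttn: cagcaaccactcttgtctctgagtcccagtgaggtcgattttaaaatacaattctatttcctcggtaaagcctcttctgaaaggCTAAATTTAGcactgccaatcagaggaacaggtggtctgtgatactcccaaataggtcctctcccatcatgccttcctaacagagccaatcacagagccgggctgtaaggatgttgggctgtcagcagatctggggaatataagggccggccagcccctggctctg
The Mybphl window held the GATA letters at position -141 from the gene start and the NKX2 letters at -21. The Mybpc3 window held the NKX2 letters at -139 and the MEF2 consensus at -90, and the Ttn window held the MEF2 consensus at -166. Of all 32851 promoter windows of the same length, 9.99% held the GATA letters, 40.7% the NKX2 letters and 0.508% the MEF2 consensus. Neither the M-CAT, T-box, TATA nor CArG letters occurred in these 3 windows, against 12.6%, 11.8%, 12.4% and 1.47% of all windows. No base belonged to more than 1 match. A match describes letters and does not show that a factor binds there. Other spellings of these motifs were not searched, so a window without capitals for a motif may still hold another form of it.

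Depth was similar, with 16782741 gene counts in the TAC library against 17612259 in the dioscin library. Levels are in CPM (counts relative to 1000000 counts of the scaled library). The size rule used below calls a gene higher or lower with dioscin where 1 or both libraries had at least 1 CPM, the libraries differed at least 2-fold and the exact 95% Clopper-Pearson interval of the ratio left out 1. By this rule, 10.5% of the 15697 genes with at least 1 CPM were higher and 8.77% were lower, together 19.3%. Among the members, 8 of 9 reached 1 CPM, of which 2 were higher (Mybphl and Myom2), 1 was lower (Mybpc3) and 5 were inside the limits. Mybphl reached 1 CPM only in the dioscin library. Their median log2 ratio was 0.07, beside 0.01 for all genes measured. The members had no common direction, and 8 genes are too few to set their counts apart from the background shares. All members together made up 1.00% of the gene counts in the TAC library against 0.714% in the dioscin library.

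**Figure D1:**
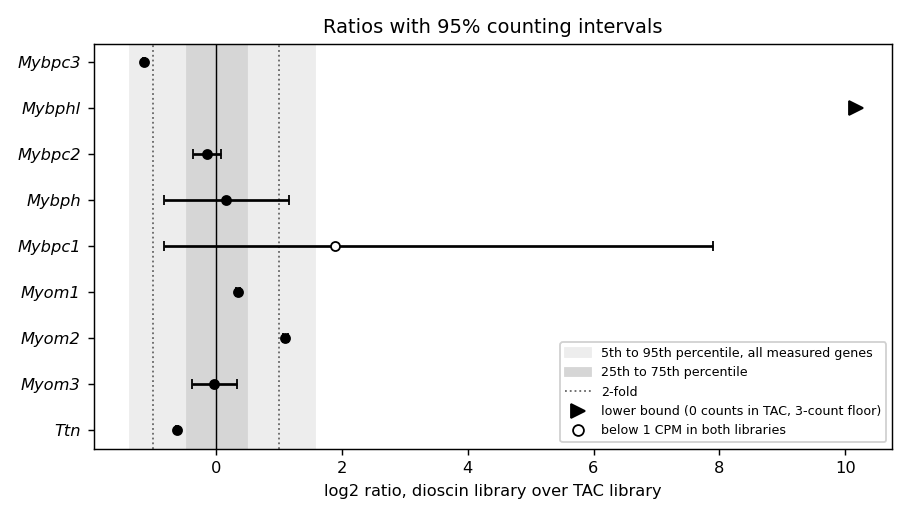
Log2 ratio (dioscin over TAC) for each member, with its 95% counting interval; grey bands are the percentiles of all measured genes, dotted lines mark a 2-fold difference, the open point (Mybpc1) was below 1 CPM, and the triangle for Mybphl is a lower bound. Mybpc3 lies at -1.14 and Myom2 at 1.11, beyond the dotted lines, and the bound of Mybphl lies far to the right of all other members.

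Mybpc3 encodes cardiac myosin-binding protein C, the form of working heart muscle (ENSMUSG00000002100.15; chromosome 2, 91118144 to 91136516, plus strand, 35 exons). Its count was 64313 in the TAC library against 28943 in the dioscin library, or 3724 and 1691 CPM. The dioscin library was the lower one, 2.20-fold (95% counting interval 2.17 to 2.23). In bulk tissue, fewer cells of a type and less RNA per cell cannot be told apart, here and in all comparisons that follow. Scaled by the median ratio of 7 cardiac muscle genes, its log2 ratio was -1.80 in place of -1.14. By that scaling 31.3% of all measured genes were lower and 3.88% higher, with a median log2 ratio of -0.68, and the counts given under it below stand against those shares. No other annotated gene overlaps Mybpc3, and none of its 50-base stretches occurs in transcripts of another gene. Among the 57 genes with at least 1000 CPM in the TAC library, Mybpc3 was 1 of 6 that were lower with dioscin. As first scaled, 8.77% of all measured genes were lower, so this count lies near the background share. Per kilobase of exon, the level of Mybpc3 was 27.1% of the summed level of the myosin heavy chain genes Myh6 and Myh7 in the TAC library against 11.5% in the dioscin library, a comparison within each library that needs no scaling between them. Myh6 and Myh7 are near-identical in long stretches, so reads they share could be left out of their counts.

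Mybphl encodes myosin-binding protein H-like, a shorter relative of protein C (ENSMUSG00000068745.6; chromosome 3, 108364911 to 108380057, plus strand, 9 exons). No read of it was counted in the TAC library (0 counts) against 3427 in the dioscin library. A count of 0 allows up to 3 counts, or 0.174 CPM, against 200.2 CPM with dioscin, so against this floor the dioscin library was at least 1152-fold higher. The exact 95% interval of the ratio, which allows the TAC library slightly more than 3 counts, begins at 937. Of 45 measured genes at 0 in the TAC library, Mybphl had the highest count with dioscin. Such genes count as measured only through the dioscin library, so the filter fixed the direction of all 45. The next 4 protein-coding genes of this kind were Fgf12, a fibroblast growth factor homologue that binds sodium channels (633 counts), the keratin genes Krt18 (235) and Krt8 (159), and the anion exchanger gene Slc26a3 (118). Keratin genes have pseudogene copies that could share their reads.

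Atrial markers were higher in the same library as Mybphl and Myom2. Of 10 atrial muscle markers, 9 reached 1 CPM, 2 of them (Myl7 and Sln) only in the dioscin library. The filter thus fixed the direction of these 2. All 9 were higher with dioscin. Calls as first scaled in this paragraph stand against 10.5% higher and 8.77% lower among all measured genes. The summed level of the list was 660 CPM in the TAC library against 17777 CPM with dioscin. Most of both sums was the single gene Nppa, with 588 and 12663 CPM. Myl7, the atrial regulatory light chain, had 13 and 30109 counts, and Sln, the atrial calcium pump regulator sarcolipin, had 1 and 12433. The atrial growth factor gene Bmp10, the only listed gene at 0 in the TAC library, had 3 counts in the dioscin library. Per kilobase of exon, the level of Mybphl was 5.26% of that of Myl7 in the dioscin library. Of 6 ventricular markers, 1 was lower (Irx4, a ventricular transcription factor, 4.20-fold, 3.62 to 4.91) and 5 were inside the limits. The 5 had no common direction. The ratio was 1.58 (1.56 to 1.61) for Myl3 and 1.43 (1.31 to 1.57) for Lrrc10. It was below 1 for Myl2, Hey2 and Kcnip2, and the interval of Hey2 included 1. Myl3, Lrrc10, Hey2 and Kcnip2 are named here after their values were seen. The summed level of the 6 was 10790 and 9878 CPM. Scaled to the cardiac muscle genes, 3 of the 6 were lower (Irx4, Myl2 and Kcnip2), with a median log2 ratio of -0.99 in place of -0.32, and 8 of the atrial markers were higher. The part of the atrial markers in the differences of Mybphl, Mybpc3, Myom2 and Ttn was not tested.

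The neighbours of Mybphl did not share 1 direction. Sort1, which encodes the sorting receptor sortilin, ends 3400 bases before Mybphl and had 267 and 1112 counts in the TAC and dioscin libraries, 4.20-fold higher with dioscin (3.67 to 4.82). Psrc1, a gene of the mitotic spindle that starts 3782 bases after Mybphl, had 50 and 20 counts, 2.44-fold lower (1.45 to 4.39). The predicted gene Gm12522 on the opposite strand covers 6.98% of the exon length of Mybphl and had 2 and 147 counts, a ratio of 59.5 (20.2 to 618). The strand setting of the counting is not given, so reads from the overlap could not be given to one strand with certainty. Around Mybpc3, the blood cell transcription factor gene Spi1 had a ratio of 0.817 (0.614 to 1.08) and Madd, a regulator of small GTPases, 0.744 (0.622 to 0.889), both inside the limits. The neighbours of Myom2, BB014433 and Csmd1, had at most 9 counts.

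The remaining myosin-binding genes were low in both libraries. Mybpc2, the fast skeletal form of protein C, had 350 and 315 counts (TAC first, then dioscin, here and below), a ratio of 0.908 (0.777 to 1.06). Mybph, the skeletal protein H, had 18 and 20 counts, a ratio of 1.12 (0.563 to 2.25), and exons of Adora1 on the other strand cover 49.9% of its exon length. Mybpc1, the slow skeletal form, had 1 and 5 counts, below 1 CPM in both, with an interval of its ratio from 0.564 to 239. The opposite-strand predicted gene Gm44646 covers 5.32% of the exon length of Mybpc2 and had 117 and 90 counts. Differences within these intervals were not detectable at this depth.

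Within the family, nearly all myosin-binding counts were Mybpc3 in the TAC library, and Mybphl held a part of them in the dioscin library. Mybpc3 made up 99.4% of the 64682 counts of the 5 genes in the TAC library (99.37% to 99.49%, Clopper-Pearson) and 88.5% of the 32710 counts in the dioscin library (88.1% to 88.8%). The share of Mybphl was 0 in the TAC library, where 3 counts would be 0.00464%, and 10.5% in the dioscin library (10.1% to 10.8%). Per kilobase of exon, Mybphl made up 27.6% of the family level in the dioscin library and Mybpc3 71.4%, and the level of Mybphl was 38.6% of that of Mybpc3.

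**Figure D2:**
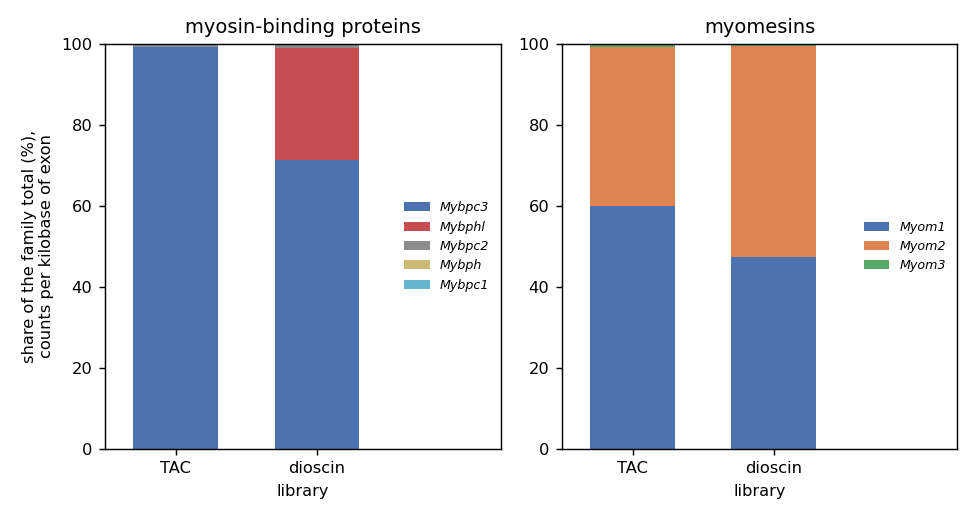
Share of each gene in the summed level of its family, in percent of counts per kilobase of exon, for the TAC and dioscin libraries; the bars stack to 100. Mybphl takes 27.6% of the myosin-binding level in the dioscin library and is absent from the TAC bar, and Myom2 takes 39.3% and 52.2% of the myomesin level.

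Myom1 encodes myomesin 1, the M-band cross-linker present in all striated muscle (ENSMUSG00000024049.15; chromosome 17, 71002633 to 71126856, plus strand). It had 17830 and 22575 counts, or 1033 and 1319 CPM, a ratio of 1.28 (1.25 to 1.30) that is inside the limits. Scaled to the cardiac muscle genes, its log2 ratio of 0.35 turned to -0.31. Myom2, the myomesin of adult heart and fast muscle fibres, M-protein (ENSMUSG00000031461.4; chromosome 8, 15057653 to 15133541, plus strand), had 9876 and 21059 counts, or 572 and 1230 CPM. It was 2.15-fold higher in the dioscin library (2.1 to 2.20). That call lies close to the limit and was lost under 2 other scalings, to the counts outside the mitochondrial genome (log2 ratio 0.90 in place of 1.11) and to the cardiac muscle genes (0.44). Myom3, the myomesin of slow and intermediate fibres, had 131 and 128 counts, a ratio of 0.986 (0.767 to 1.27).

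Among the myomesins, the share of Myom2 was larger in the dioscin library. Of the 27837 myomesin counts in the TAC library, 35.5% were from Myom2 (34.9% to 36.0%), and of the 43762 in the dioscin library 48.1% (47.7% to 48.6%). These intervals do not overlap, and library scaling has no part in them, but they cover counting error only and not differences between mice. Per kilobase of exon, Myom2 stood at 0.654 times the level of Myom1 in the TAC library against 1.10 times in the dioscin library. Their order by this measure thus differed between the libraries. By counts it did not, as Myom1 had more than Myom2 in the TAC library (17830 and 9876) and in the dioscin library (22575 and 21059). Relative to the myosin heavy chains Myh6 and Myh7, the summed level of Myom1 and Myom2 was 4.95% in the TAC library against 7.49% in the dioscin library.

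Ttn encodes titin (ENSMUSG00000051747.15; chromosome 2, 76703980 to 76982547, minus strand), in a gene with up to 347 exons in a transcript. It had the most counts of the members, 76087 against 49312, or 4406 and 2881 CPM. The ratio was 0.654 (0.646 to 0.661), inside the limits though its interval excludes 1. Scaled to the cardiac muscle genes, the log2 ratio was -1.28 in place of -0.61 and passed the size rule as lower. The counts are per gene, so cardiac isoforms of titin, which differ in the exons kept, were not told apart.

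Per kilobase of exon, the order of levels in the TAC library was Mybpc3 (895 CPM per kilobase), Myom1 (98.7), Myom2 (64.6), Ttn (37.7), Mybpc2 (5.61), Myom3 (1.26), Mybph (0.448) and Mybpc1 (0.0128), with Mybphl at 0. In the dioscin library the order was Mybpc3 (406), Mybphl (157), Myom2 (139), Myom1 (126), Ttn (24.7), Mybpc2 (5.10), Myom3 (1.24), Mybph (0.502) and Mybpc1 (0.0645). Mybphl thus stood second where it had been undetected. The lengths are merged exons of all annotated transcripts, 116825 bases for Ttn against 1276 for Mybphl, and understate the level of genes that use only part of their exons. Spread over animals is not known, so neighbours in either order cannot be separated beyond counting error.

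**Figure D3:**
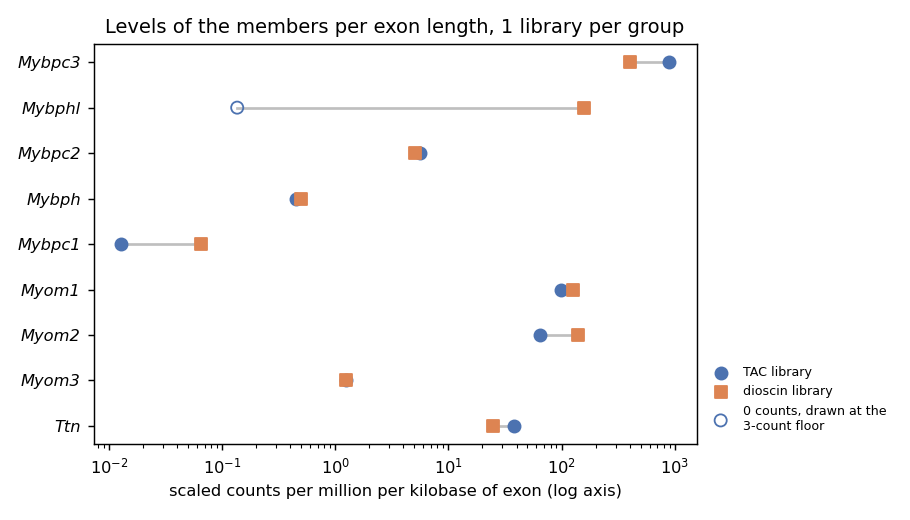
Level of each member in CPM per kilobase of exon (log axis), circles for the TAC library and squares for the dioscin library; the open circle is Mybphl at 0 counts, drawn at the floor of 3 counts. Mybpc3 is the highest member in both libraries, at 895 and 406, and Mybphl joins the upper group in the dioscin library only, at 157.

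**Figure D4:**
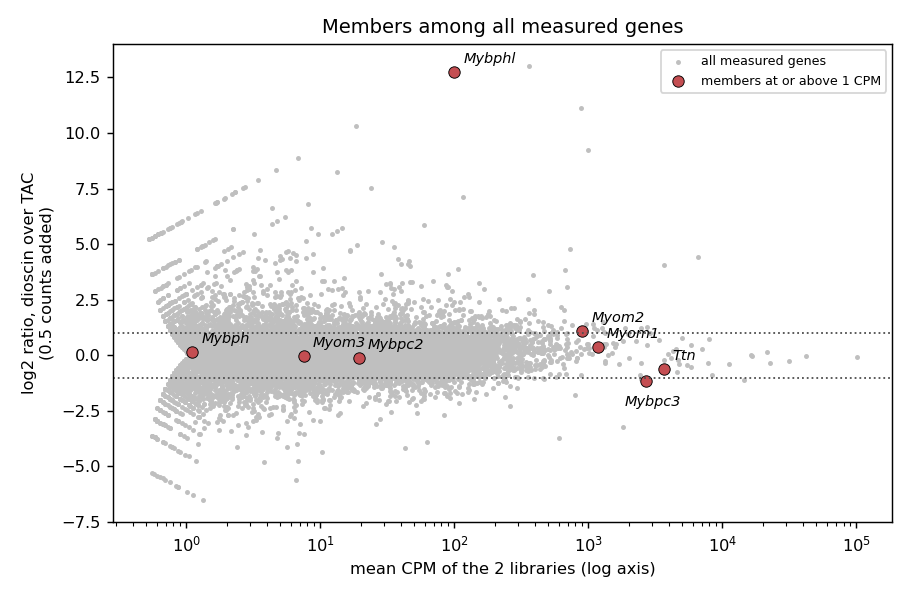
Log2 ratio, dioscin over TAC (0.5 counts added to both) against the mean CPM of both libraries on a log axis, for 15697 measured genes in grey and the 8 members at or above 1 CPM in red; dotted lines mark a 2-fold difference. Mybphl, whose place depends on the added 0.5 counts, stands at the upper edge of the cloud, and the abundant Mybpc3 and Ttn lie below 0.

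Conduction system markers as a list did not share the direction of Mybphl. Of 10, 8 reached 1 CPM, 1 was higher (Gja5, the connexin of atrial and fast conducting muscle, 2.32-fold, 1.95 to 2.79) and 3 were lower. The 3 were Cntn2, an adhesion molecule of Purkinje fibres, with 219 and 13 counts, the pacemaker channel gene Hcn4 with 108 and 20, and the calcium channel gene Cacna1g with 423 and 157. Of the 8, Cntn2 and Shox2 reached 1 CPM only in the TAC library, so the filter fixed the direction of Cntn2. Among all measured genes, 10.5% were higher and 8.77% lower. The summed level of all 10 was 101 and 88.6 CPM, and Isl1 was at 0 in the TAC library. With the cardiac muscle genes as the scale, 0 were higher and 4 lower.

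Skeletal muscle markers are given beside the skeletal forms Mybpc1, Mybpc2 and Mybph. Calls as first scaled in this paragraph stand against 10.5% higher and 8.77% lower among all measured genes. Of 15 skeletal markers, 7 reached 1 CPM, 3 were higher and 1 was lower, and the summed level was 36.4 and 181 CPM. Most of that difference was Myl1, an essential light chain gene with 327 and 2759 counts. The calcium pump gene Atp2a1 had 21 and 91 counts and the troponin gene Tnni2 31 and 86, both higher, and Pvalb, parvalbumin, had 40 and 1. Pvalb, the 1 lower gene, reached 1 CPM only in the TAC library, so the filter fixed its direction. Actn3 and the heavy chain gene Myh2 were at 0 in the TAC library and had 14 and 1 counts in the dioscin library, and Myh1, Myh4, Myod1 and Myf6 were at 0 in both. On the scale of the cardiac muscle genes, 2 of the list were higher and 2 lower. The 8 mesothelial markers had a summed level of 18.5 and 153 CPM, with Krt8 and Krt18 at 0 in the TAC library, and 7 were higher. Of the 8, 6 reached 1 CPM only in the dioscin library, so the filter fixed their direction. The 6 adipocyte markers had a summed level of 0.811 and 31.1 CPM, with Cidec, Plin1 and Retn at 0 in the TAC library. All 5 that were measured reached 1 CPM only in the dioscin library, so their direction is given by the filter and their count is not a result. Of 5 smooth muscle markers, 1 was higher and 1 lower, with 586 and 595 CPM, and 0 were higher and 1 lower scaled to the cardiac muscle genes. The part of these cell types in the members' differences was not tested.

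**Figure D5:**
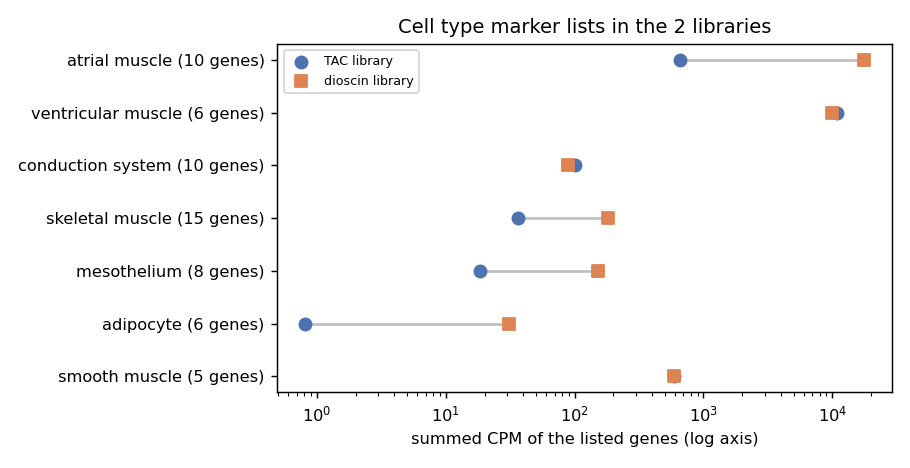
Summed CPM (log axis) of each cell type marker list in the TAC library (circles) and the dioscin library (squares). The sums of the atrial, mesothelial, adipocyte and skeletal lists are higher in the dioscin library. The atrial one is so mostly through the single gene Nppa, and the skeletal one mostly through the single gene Myl1. The ventricular list is 10790 and 9878 CPM.

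The other thick filament genes give the scale for the members. Of 8 genes, the myosin chains and the light chain kinase gene Mylk3, 3 were higher and 1 was lower, and their median log2 ratio was 0.40. Myl7, 1 of the 3, reached 1 CPM only in the dioscin library, so the filter fixed its direction. Calls as first scaled, in this list and those below, stand against 10.5% higher and 8.77% lower among all measured genes. The most abundant of the 8, Myh6, the adult heavy chain of the mouse heart, had 357035 and 387858 counts, a ratio of 1.10 (1.09 to 1.10). Besides Myl7 and the atrial light chain gene Myl4 (55 and 33721 counts), Mylk3 was higher, 2.53-fold (2.43 to 2.65). Myh7b, a heavy chain gene that hosts a microRNA, was 13.0-fold lower (12.3 to 13.7), with 19430 and 1484 counts. Scaled to the cardiac muscle genes, 2 of the 8 were higher and 3 lower, and the median was -0.27, where 31.3% of all genes were lower.

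Partners of the myomesins and of the titin end at the M-band numbered 14. Of these, 4 were higher and 10 were inside the limits, and the median log2 ratio was 0.24. Sqstm1, a cargo receptor of autophagy that binds the titin kinase signalling complex, was 2.87-fold higher (2.74 to 2.99). Smpx, a small muscle protein, was 2.51-fold higher (2.39 to 2.64), the ubiquitin ligase gene Trim54 2.25-fold (2.14 to 2.37) and Cmya5, myospryn, 2.08-fold (1.98 to 2.19). Obsl1, a cytoskeletal adaptor gene named here after its values were seen, had 3319 and 1724 counts, a ratio of 0.524 (0.494 to 0.556). These calls changed with the scaling. By the cardiac muscle genes, 4 of the 14 passed as lower and 0 as higher, and the median was -0.43. That share lies near the 31.3% of all genes. By counts outside the mitochondrial genome, 2 passed as higher and Obsl1 as the 1 lower, beside 7.71% and 13.8% of all genes.

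Ligands of titin nearer the Z-disc had calls in both directions. Of 10, 9 reached 1 CPM, 3 were higher and 1 was lower, with a median of 0.32. Fhl1, a LIM protein that binds the titin spring, was 3.56-fold higher (3.30 to 3.84). Tcap, the cap of the titin end at the Z-disc, was 2.07-fold higher (2.03 to 2.11), and Actn2, the actin cross-linker of the Z-disc, 2.02-fold (1.98 to 2.06), in contrast to the ratio of 0.654 for Ttn itself. Ankrd23, an ankyrin repeat protein of the titin spring region, was 2.90-fold lower (2.24 to 3.82). Actn2 was inside the limits under each of the 4 other scalings and Tcap under 3 of them, and the median was -0.35 by the cardiac muscle genes, a list that holds Actn2 itself.

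Among genes that process or modify the members, none of 5 genes of titin splicing and thick filament assembly passed the size rule, with a median log2 ratio of 0.18. The most abundant was the chaperone gene Hsp90ab1, with a ratio of 1.47 (1.43 to 1.51). Rbm20, the splicing factor that sets titin isoforms, named here after its values were seen, had 6348 and 4388 counts, a ratio of 0.697 (0.671 to 0.725). None of 8 kinases that phosphorylate protein C or titin passed either, with a median of 0.08, and the most abundant, Camk2d, had a ratio of 0.844 (0.790 to 0.902). Scaled to the cardiac muscle genes, Rbm20 and the kinase gene Camk2g passed as lower.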

How the data were processed

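RNA sequencing libraries from mouse hearts, 1 per group, were made with the Illumina TruSeq RNA kit, per the labels' protocols. Both deposited tables hold unnormalized read counts for each gene. HISAT2 2.1.0, HTSeq and the build mm10 are named in the submitters' processing notes. Which HTSeq version, annotation and strand setting were used is not given in the sources used here. From each table, the 5 HTSeq summary lines were left out of library sizes and comparisons. Reads in no gene were 30.04% and 30.03% of all lines in the TAC and dioscin libraries, reads with several alignments 38.2% and 36.5%, and reads in overlapping genes 1.49% and 1.39%. Mitochondrially encoded genes took 31.6% and 25.5% of the gene counts.

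Names, coordinates and merged exon lengths came from GENCODE M21 on GRCm38, matched without the version number for 55141 of 55401 identifiers. The files carry a later version than M21 for Ttn and Mybpc1. Scaling used the TMM method (edgeR 4.0.16, R 4.3.3). Ratios used a pseudocount of 0.5, and intervals are exact Clopper-Pearson limits from scipy 1.17.1. PCR copies were not told apart. The ratio script was tested on simulated data. DESeq2 1.42.0 gave the size factors of an alternative scaling.

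All 9 members were named. From each list, members past the size rule (at most 4, by the interval limit nearest to 1) and the most abundant one were eligible. One partner gene is not reported here by name. The members and lists were chosen with earlier results of these data known.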

Additional observations from a re-analysis of the deposited data

How the results depend on the processing

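Mybphl was higher and Mybpc3 lower under each of the 4 other scalings, both other pseudocounts and both other filters, and Myom2 was higher under all of these except 2 scalings. Each of the 4 scalings shifted every log2 ratio downward, so none of them could undo the call of Mybpc3. Its counts are also too large for these pseudocounts and filters to undo that call. With 0 against 3427 counts, none of these scalings, pseudocounts and filters could undo the call of Mybphl either. Scaling to counts outside the mitochondrial genome shifted every log2 ratio by -0.21. Of the members, 1 was then higher, the members' median was -0.14 and that of all genes -0.21, and 2286 genes were lower in place of 1377. Scaling by the 7 cardiac muscle genes shifted every log2 ratio by -0.66. Of the members, 1 was then higher and 2 lower (Mybpc3 and Ttn), their median was -0.59 and that of all genes -0.68, and 595 genes were higher in place of 1655 and 4800 lower. Genes called higher were 54.6% of all calls as reported, 35.8% outside the mitochondrial genome and 11.0% by the cardiac genes. Total counts as the library size and DESeq2 size factors changed no member's call.

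A filter of 5 CPM left 1045 genes higher and 695 lower, with fewer genes measured. With a fold limit of 1.5, 2 members were lower (Mybpc3 and Ttn), and 3187 genes were higher and 2815 lower. With a fold limit of 3, 1 member was higher (Mybphl) and 0 were lower, and 781 genes were higher and 554 lower. No paired analysis was possible because each group had 1 library, and for the same reason no library could be left out. Depth limits Mybpc1 and Mybph, with at most 5 and 20 counts.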
